A study of Homo sapiens with 12 samples.

Results

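The members described here are the RNA clusters that remained enriched over input when QKI-5 carrying 2 substitutions in its RNA-binding KH domain was immunoprecipitated. A cluster is a stretch of RNA with piled-up reads. It was called enriched when its log2 fold over input and its −log10 p were both at least 3. Mutant library 1 held 94 such clusters among 231814, and mutant library 2 held 829 among 272728, so that 923 of the 1620964 clusters in the 6 libraries of the series were members. The authors' reproducible list for the mutant, which pools both libraries, holds 55 peaks, all of them on these clusters. Gene names and region classes came from clusters of endogenous QKI that overlapped a member on the same strand.

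QKI (Quaking) belongs to the STAR family of RNA-binding proteins, in which 1 KH domain and its flanking segments grip single-stranded RNA and favour an ACUAA-like core with a second short match nearby. QKI-5 is the nuclear isoform and regulates pre-mRNA splicing mainly through introns near the exons it controls. U6 small nuclear RNA pairs with the 5′ splice site in the spliceosome and is made, like tRNA, by RNA polymerase III.

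The assay was eCLIP, which joins protein to RNA with ultraviolet light, precipitates the protein and compares the RNA that comes with it to a size-matched input. Mutant cells received, by transient transfection, 10 µg of a plasmid that encodes myc-QKI-5 carrying K120A and R124A, 2 amino acid changes counted along the protein, and wild type cells received myc-QKI-5 without them. Both were cultured for 72 hours and precipitated with an anti-MYC antibody. Endogenous QKI was taken from unmodified cells with an anti-QKI antibody. All cells were crosslinked at 254 nm with 400 mJ/cm2. The labels name the line HEK293xT and the protocol 293T from Clontech, an established human embryonic kidney line, whereas the series' design note speaks of embryonic stem cells becoming cardiomyocytes. None of 8 pluripotency markers had a cluster in the endogenous libraries, whose clusters also gave the names in the other libraries. By contrast, 4 and 5 of 10 cardiac genes had clusters in the endogenous libraries (208 clusters with 1 enriched, and 115 with 2). These were ACTN2, CACNA1C, RYR2 and TTN, with NKX2-5 in endogenous library 2. Of 8 neuronal markers, 2 and 3 had clusters there (212 with 3 enriched, and 119 with 5). Clusters at these genes thus do not tell the cell types apart. In the mutant libraries cardiac genes had 15 and 8 clusters and none was enriched, which allows up to 20% and 37.5%. Each group had 2 immunoprecipitation libraries, and 2 against 2 allows no exact two-sided permutation p below 0.333. Separate cultures are not stated for the libraries of a group, so p-values reflect only how far these libraries differ, which may be technical. The transfected cells also hold endogenous QKI, and the amount of protein recovered per library was not analysed here.

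The share of enriched clusters differed more between the 2 mutant libraries than between the wild type libraries. Enriched clusters made up 0.0405% of mutant library 1 (95% exact binomial interval 0.0328 to 0.0496, counting error only) and 0.304% of mutant library 2 (0.284 to 0.325), against 2.07% and 1.89% of the wild type libraries and 4.22% and 5.39% of the endogenous libraries. Read depth is unknown. The mutant and wild type files list no cluster at or below a log2 fold of 0, whereas the endogenous files do, so an unlisted cluster is either absent or not above input.

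Few members recurred. In mutant library 1, 33 of the 94 enriched clusters shared at least 1 base with an enriched cluster of mutant library 2 (35.1%, 25.5 to 45.6). In mutant library 2 the count was 34 of 829 (4.10%, 2.86 to 5.68), which left 61 and 795 clusters enriched in a single library. Joined within 50 bases, the 923 clusters gave 833 loci, of which 20 held overlapping clusters of both libraries, 1 held clusters of both without a shared base, 50 belonged to library 1 alone and 762 to library 2 alone. Shared clusters were the stronger ones, as a description of values that the choice of members used. Their median log2 fold was 4.07 in library 1 and 4.13 in library 2, against 3.65 and 3.28 for single-library clusters. Their median −log10 p was 7.42 and 10.4, against 5.23 and 3.74.

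Most single-library clusters of library 2 lay close to the threshold. A −log10 p under 5 was found for 604 of its 829 members (72.9%), against 36 of 94 in library 1 (38.3%). In library 2 the same pair of values, a log2 fold of 3.01 with a −log10 p of 3.02, occurred in 121 members. The commonest pair in library 1, 3.78 with 3.20, occurred in 6. In library 1 the lowest member fold was 3.02 and the nearest fold below the threshold 2.999 (14 clusters), while the lowest member −log10 p was 3.20 and the nearest below it 2.96. In library 2 these values were 3.01 and 2.99 for the fold and 3.02 and 2.88 for the −log10 p.

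**Figure D1:**
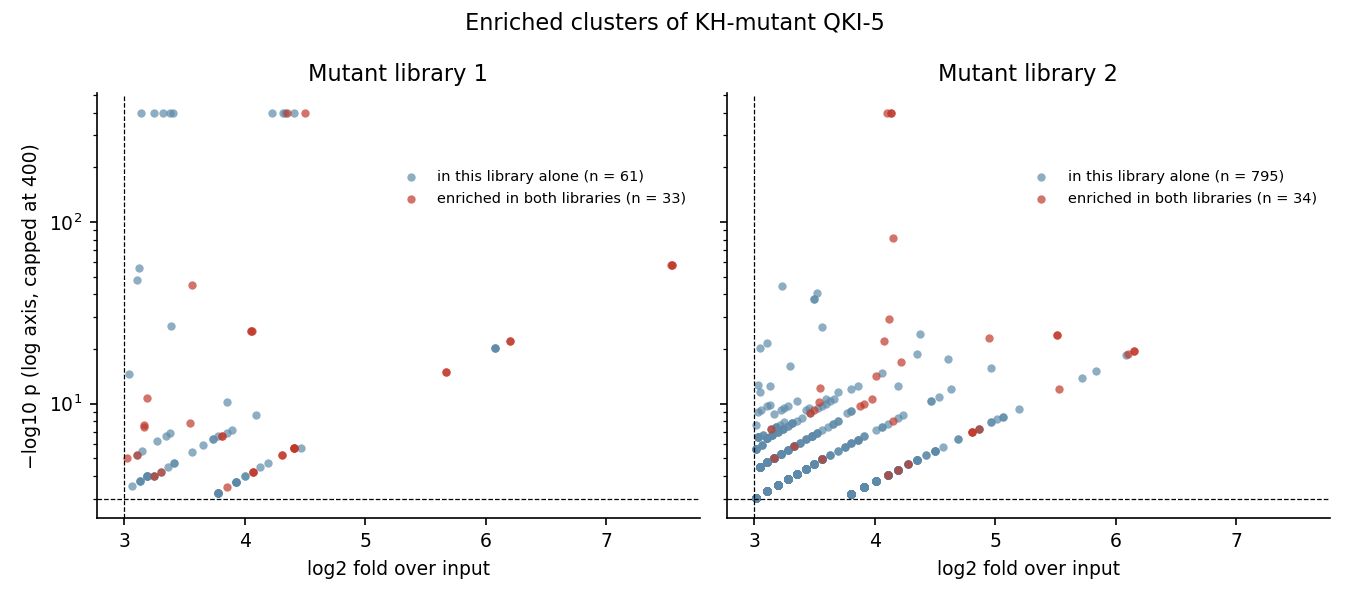
Each point is 1 enriched cluster of KH-mutant QKI-5, plotted by its log2 fold over input (x axis) and its −log10 p (y axis, log scale, capped at 400), with dashed lines at the thresholds of 3. Clusters enriched in both libraries are red and those of a single library are blue. The 795 single-library clusters of library 2 fall on diagonal lines of repeated values, most of them under a −log10 p of 5.

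A cluster enriched in 1 mutant library was often listed in the partner library at a lower fold. Of the 94 members of library 1, 75.5% were listed in library 2, with a median log2 fold of 2.80. Of its other 231720 clusters, 21.8% were listed there, with a median of 1.08. Of the 829 members of library 2, 47.9% were listed in library 1 with a median of 1.12, against 18.5% and 0.71 for the other 271899. Among the single-library members, 38 of 61 and 363 of 795 had a partner cluster, and the partner fold was at least 2 in 17 and 57 of them. One that narrowly missed was RN7SKP168, a copy of the gene for 7SK, the RNA that restrains the elongation factor P-TEFb. Its log2 fold was 3.69 in library 1, with a −log10 p of 2.94, and 3.91 in library 2, with a −log10 p of 3.45.

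The share of enriched clusters was highest at tRNA genes in both mutant libraries. Of the clusters on tRNA genes, 6 of 36 were enriched in mutant library 1 (16.7%, 6.37 to 32.8) and 12 of 37 in library 2 (32.4%, 18.01 to 49.8), against 12 of 42 (28.6%) and 0 of 26 (up to 13.2%) in the wild type libraries. Noncoding exons, the class that holds U6, had 22 of 2070 (1.06%) and 28 of 2572 (1.09%) in the mutant, against 5.23% and 5.66% in wild type. In coding introns away from splice sites the mutant share was 9 of 27633 (0.0326%) and 93 of 30916 (0.301%), against 4.89% and 4.82% in wild type. In 3′ UTRs it was 10 of 4245 (0.236%) and 5 of 3578 (0.140%), against 4.76% and 4.58%. The tRNA intervals count neighbouring clusters of 1 gene separately, and the enriched tRNA clusters came from 3 and 4 genes in the mutant. In wild type they came from 5 and 0 genes, so the 2 wild type libraries differed. The tRNA share of mutant library 1 lay between theirs, and that of mutant library 2 lay above both. For the noncoding exons, introns and 3′ UTRs both mutant shares lay below both wild type shares.

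**Figure D2:**
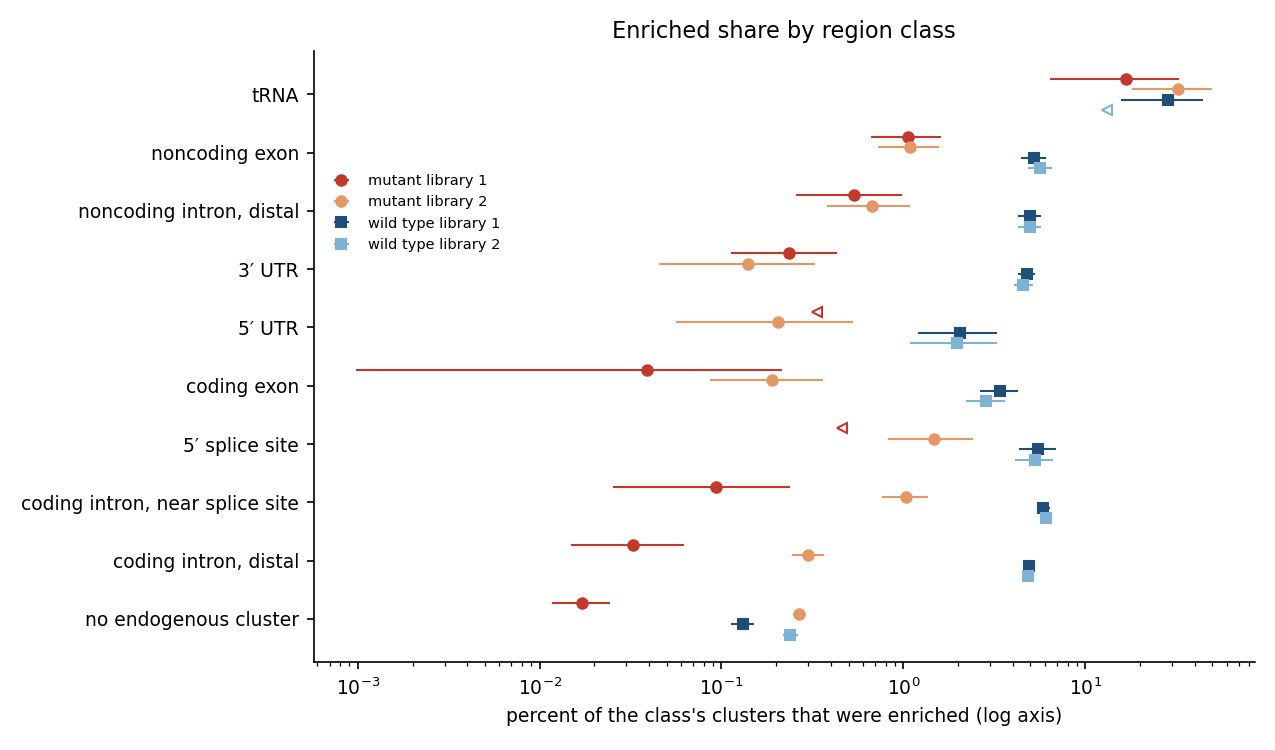
Percent of each region class's clusters that were enriched (x axis, log scale), for mutant libraries 1 and 2 (circles) and wild type libraries 1 and 2 (squares), with 95% exact binomial intervals that cover counting error only. Open triangles mark the upper bound where no cluster was enriched. Both mutant libraries sit left of wild type in every class drawn except tRNA and clusters without an endogenous cluster, where mutant library 2 reached 0.268% against 0.131% and 0.239% in wild type.

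U6 copies gave 4 of the 20 shared loci. Of the clusters on U6 genes and their pseudogene copies, 12 of 36 were enriched in mutant library 1 and 8 of 36 in mutant library 2 (33.3% and 22.2%), against 18 of 48 and 9 of 41 in wild type (37.5% and 21.95%). RNU6-671P (hg19 chromosome 12, 45948369 to 45948448, minus strand) led with log2 folds of 4.06 and 5.51 in the mutant, against 6.12 and 5.80 in wild type, with 6.45 and 5.96 in endogenous. Both mutant values lay below both wild type and both endogenous values. RNU6-44P (chromosome 11, 112223341 to 112223386, minus strand) had 4.31 and 4.28 in the mutant, against 4.37 and 3.61 in wild type, with 4.30 and 4.32 in endogenous, so the 3 groups overlapped. RNU6-40P and RNU6-49P were the other shared copies. The copies enriched in a single mutant library were RNU6-37P (3.85 in library 1 and 2.61 in library 2), RNU6-222P (3.999 and 2.91) and RNU6-8 (2.31 and 3.86). All 3 were enriched in both endogenous libraries, at 4.81 and 6.35, 5.72 and 4.81, and 5.63 and 5.40. U6 copies are nearly identical, so the copy a read came from is uncertain.

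Among tRNA genes, which encode the adaptors of translation, 3 were enriched in mutant library 1 and 4 in library 2, and tRNA-Arg-TCG-1-1 was enriched in both. That gene (chromosome 15, 89878320 to 89878380, plus strand) had log2 folds of 4.50 and 4.13 in the mutant, against 3.89 and 1.97 in wild type, with −0.24 and −0.52 in endogenous. The selenocysteine tRNA gene tRNA-SeC-TCA-1-1 (chromosome 19, 45981855 to 45981946, minus strand) had 2.93 and 3.52 in the mutant, against 1.73 and 1.76 in wild type, with −1.30 and −2.07 in endogenous. At tRNA-Arg-TCT-1-1 (chromosome 1, 94313174 to 94313217, plus strand) the values were 4.41 and 2.72 in the mutant, against 3.91 and 2.39 in wild type, with −0.26 and −0.78 in endogenous. At all 3 the mutant exceeded the endogenous values, and at the first and second both mutant values also exceeded both wild type values. Both wild type libraries, made with the same tag, antibody and transfection as the mutant, also exceeded both endogenous values at all 3. The antibody and the transfection differ between the tagged and endogenous libraries, and their part was not tested.

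The other tRNA genes were each enriched in a single mutant library. tRNA-Gln-TTG-2-1 reached 5.19 in library 2 and 2.78 in library 1, with 4.06 and 1.35 in wild type and −0.74 in endogenous library 1. tRNA-Sup-TTA-1-1 had 3.50 in library 2 and 0.93 in library 1, and tRNA-Cys-GCA-3-1 had 3.74 in library 1 and 1.62 in library 2. No tRNA cluster of the mutant was enriched in either endogenous library. Of the 6 and 12 tRNA clusters, 5 and 7 were enriched in wild type library 1 and 0 in wild type library 2.

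Mitochondrial tRNAs were enriched in mutant library 1 alone. MT-TP, the mitochondrial proline tRNA, had a log2 fold of 4.32 in library 1 and no cluster in library 2, with 1.12 and 1.00 in wild type, with 0.98 and 0.46 in endogenous. MT-TY, for tyrosine, had 4.23 and 0.36 in the mutant, against 1.74 and 1.81 in wild type. MT-TG, for glycine, had 3.38 and 1.56 in the mutant, against 1.14 and 2.12 in wild type, and MT-TC, for cysteine, had 3.25 and 1.28 in the mutant, against 0.28 in wild type library 1. In mutant library 1 these 4 genes stood above every listed wild type value, but they were named for enriched clusters there, so high values are built in. In mutant library 2 none of MT-TP, MT-TY and MT-TG did, and MT-TC, unlisted in wild type library 2, exceeded its 1 wild type value. At named mitochondrial genes 5 of 26 clusters were enriched in library 1, and on the whole mitochondrial chromosome 7 of 40. Of the 63 clusters at named mitochondrial genes in library 2, 0 were enriched, which allows a share of up to 4.76%, while wild type had 35 of 99 and 36 of 101.

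The highest fold of each mutant library was in an intron of ARHGAP24, and the next highest of library 1 were in introns of 2 noncoding genes. ARHGAP24, which encodes a GTPase-activating protein, carried 5 enriched clusters in each mutant library within 110 bases of an intron (chromosome 4, 86875722 to 86875831, plus strand), at 7.54 and 6.15 in the mutant, against 8.56 and 7.74 in wild type, with 7.36 and 6.58 in endogenous. A locus in an intron of the long noncoding RNA gene LINC00471 was at 6.21 and 3.91 in the mutant, against 6.78 and 6.01 in wild type, with 6.83 and 5.16 in endogenous. An intron of LINC01643, another such gene (chromosome 22, 34558591 to 34558619, plus strand), was enriched in library 1 alone, at 6.08 and 2.69 in the mutant, against 5.52 and 6.14 in wild type, with 4.44 and 6.97 in endogenous. These 3 sites were enriched in both wild type and both endogenous libraries.

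In other introns the order of the groups varied. ANKRD30BL, annotated as noncoding in the files, held 2 shared loci and 2 more on the reproducible list in its introns (chromosome 2, minus strand). At the lowest of the 4 by coordinate (133012238 to 133012332) the values were 3.17 and 3.54 in the mutant, against 0.76 and 2.21 in wild type, with 1.13 and 0.96 in endogenous. At the neighbouring locus (133012450 to 133012517) they were 3.16 and 3.98, 3.87 and 4.32, and 0.76 and 2.37, so the order of mutant and wild type differed between neighbouring loci of the gene. PID1 encodes an adaptor protein with a phosphotyrosine interaction domain. Its locus (chromosome 2, 230045635 to 230045716, minus strand) had 4.07 and 4.11 in the mutant, against 2.00 and 3.61 in wild type, with −0.74 and 1.15 in endogenous. Over the wider stretch 230045558 to 230045720 endogenous library 1 gave 0.16. Introns of RILPL1, a regulator of primary cilium content, TBCD, a tubulin-folding cofactor, TMEM91, and MED16, a Mediator subunit, were on the reproducible list with 1 library under the threshold. MED16 was the least even of them, at 1.96 and 4.61 in the mutant, against 1.29 and 0.53 in wild type.

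In 3′ UTRs the 2 mutant libraries had 1 gene in common. TTF2, which encodes a transcription termination factor with ATPase activity (chromosome 1, 117645308 to 117645403, plus strand), had 3.55 and 3.56 in the mutant, against 7.23 and 8.46 in wild type, with 10.58 and 8.99 in endogenous. The mutant values nearly coincided and lay below all 4 others. HNRNPK, itself a gene for a KH-domain protein, had 4.46 in library 1 and no cluster in library 2, against 7.02 and 6.30 in wild type, with 7.45 and 8.54 in endogenous. Another 7 UTR genes of library 1, among them SLC38A2, an amino acid transporter (3.39 and 2.15), HMGCS1, of cholesterol synthesis (3.93, unlisted in library 2), and RFC5, a subunit of the DNA clamp loader (3.999, unlisted in library 2), were not enriched in wild type or endogenous. In library 2 the 4 others were PPP6R2, TOP3B, TRMT2A and DSG2, at 3.22 to 3.52, against 0.83 to 1.71 in library 1.

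A large group of members had no endogenous cluster and so no class of their own. They were 32 of 94 in library 1 (34.0%) and 589 of 829 in library 2 (71.0%), against 80.4% and 80.5% of the other clusters of these libraries. Of these, 26 and 483 lay within the outermost endogenous clusters of 1 named gene on the same strand, and such a gene is given here as a position only. Where the opposite strand was checked, 0 and 2 had an endogenous cluster there.

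Within LINC00632, a long noncoding RNA gene, 5 of the 20 shared loci lay inside 2112 bases (chromosome X, 139805573 to 139807684, plus strand). In that window 5 of 7 clusters were enriched in mutant library 1 and 10 of 10 in mutant library 2, against 0 of 3 and 1 of 6 in the wild type libraries and no cluster at all in endogenous. The median log2 fold there was 3.31 and 4.08 in the mutant, against 1.63 and 1.89 in wild type. The window was drawn around clusters enriched in both mutant libraries, so higher mutant values are built in. Library 2 had 2 more members within the gene outside it. At the nearer one (139807761 to 139807828) the mutant had 1.53 and 3.65, against 3.06 and 3.65 in wild type, so the groups overlapped there.

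The other shared loci without an endogenous cluster were within NUP210, a nuclear pore protein gene (3.19 and 4.12 in the mutant, against 1.67 and 1.80 in wild type), PIAS4, a SUMO ligase gene (3.25 and 3.14 in the mutant, against 2.22 and 1.25 in wild type), and AGAP1, an Arf GTPase-activating protein gene (4.07 and 3.16 in the mutant, against 1.41 and 0.02 in wild type). An unnamed locus of 11 bases (chromosome 1, 17067071 to 17067081, plus strand) had 4.41 and 5.53 in the mutant and was listed in neither the wild type nor the endogenous libraries. At the loci within NUP210, PIAS4 and AGAP1 both mutant values were above both wild type values. These loci were chosen as enriched in both mutant libraries and without an endogenous cluster. High mutant values are therefore built in, and no endogenous value could be listed. In library 2 alone, enriched clusters within the same gene recurred at AUTS2, a gene linked to neurodevelopment (10 clusters, up to 6.08), DIP2C (7, up to 3.91), PDE9A, a cyclic GMP phosphodiesterase gene (6, up to 4.96), and ANKRD11, a chromatin regulator gene (5, up to 4.11). The AUTS2 locus on the reproducible list was also listed in library 1, under the threshold, at 2.46 against 4.35 in library 2.

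Enriched clusters near splice sites came mostly from library 2 alone, as did single-library clusters of all classes (795 in library 2 and 61 in library 1). On 5′ splice sites 15 of 1017 clusters were enriched in library 2 (1.47%, 0.828 to 2.42) and 0 of 800 in library 1 (up to 0.460%), and in coding introns near splice sites 49 of 4753 (1.03%) and 4 of 4310 (0.0928%). None of the 15 and none of the 49 was enriched in a wild type or endogenous library, and over the other clusters of library 2 the shares were also low (0.187% and 0.619%). USP33, a deubiquitinase gene, led the 5′ splice sites with 5.06 in library 2 and 1.85 in library 1, against 1.41 and 1.44 in wild type and −1.74 in endogenous library 1. SLC38A10 had 4.28 and RPS6KB2, a ribosomal S6 kinase gene, 4.19 in library 2, and neither was listed in library 1 or in wild type. Chromosome 19 held 80 of the 829 members of library 2 (9.65%) but 3.94% of all its clusters, and chromosome 22 held 55 (6.63%) but 3.04%. Base composition was not tested.

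Other single-library clusters recurred in or stood high at several named genes. KCNQ3, a potassium channel gene, had 2 clusters in library 1 at 3.93, with 1.69 in library 2 and 3.58 and 3.76 in wild type. CCDC57 had 3 intron clusters in library 2, up to 4.63, against 2.41 in library 1 at the same cluster. PLXNA1, a semaphorin receptor gene, and DLG5, a scaffold protein gene, had 2 each, up to 4.11 and 4.01. AAMDC (4.86 in library 2, 2.31 in library 1) and CAMTA1, a calmodulin-binding transcription activator gene (4.50, unlisted in library 1), followed. The long noncoding transcripts lnc-UAP1L1-4 (5.01), lnc-ZNF644-1 (4.69) and lnc-USP6-2 (4.19) were also enriched in library 2 alone. Of these 3, lnc-USP6-2 was the one enriched in wild type, at 6.53 and 5.47, and in endogenous, at 7.17 and 7.26, while library 1 gave 1.19 at the same cluster.

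No cluster classed as microRNA was enriched, of 6 in library 1 and 8 in library 2. Library 2 had 2 members classed as near a microRNA, and 1 member of library 1 carried a microRNA's name. The cluster named hsa-let-7d in library 1, which the files class as a noncoding exon (chromosome 9, 96941629 to 96941731, plus strand) had 3.36 in library 1 and 0.52 in library 2, against 0.95 and 0.76 in wild type. Clusters near hsa-mir-940 and hsa-mir-503 had 3.63 and 3.21 in library 2, against 0.61 and 1.47 in library 1. The let-7 family silences growth genes. The mature let-7d strands (RefSeq, GRCh38.p14) are given with the seed, bases 2 to 8, in capitals. They are given because let-7d was the sole microRNA name among the members of library 1. The 2 strands do not share a seed. The builds differ, so the hg19 cluster was not placed against them, and no binding to these strands is shown.
hsa-let-7d-5p: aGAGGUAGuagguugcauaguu
hsa-let-7d-3p: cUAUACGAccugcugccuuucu

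The authors' reproducible list for the mutant held 55 peaks at 19 named genes, with a log2 fold for the pair between 3.01 and 6.85 (median 3.84). Of these peaks 32 were enriched in both libraries, 8 in library 1 alone and 15 in library 2 alone. Joined within 50 bases they made 35 loci, of which 9 were enriched in both wild type libraries, 5 in 1 and 21 in none, and 9 were enriched in both endogenous libraries and 26 in neither. Of the 29 loci listed in both wild type libraries, both mutant values lay above both wild type values at 16 and below them at 4. Over all 5356 regions with a cluster in these 4 libraries the shares were 31.0% and 14.0%. Of the 19 loci listed in both endogenous libraries, the mutant lay above at 9 and below at 5, against 30.2% and 39.1% of 1623 regions. The list was made from the mutant libraries, so the counts describe it and test nothing. At ZNF394, a zinc finger gene, the mutant lay below both other groups, at 2.46 and 3.56 against 6.05 and 7.38 in wild type, with 7.30 and 7.37 in endogenous.

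**Figure D3:**
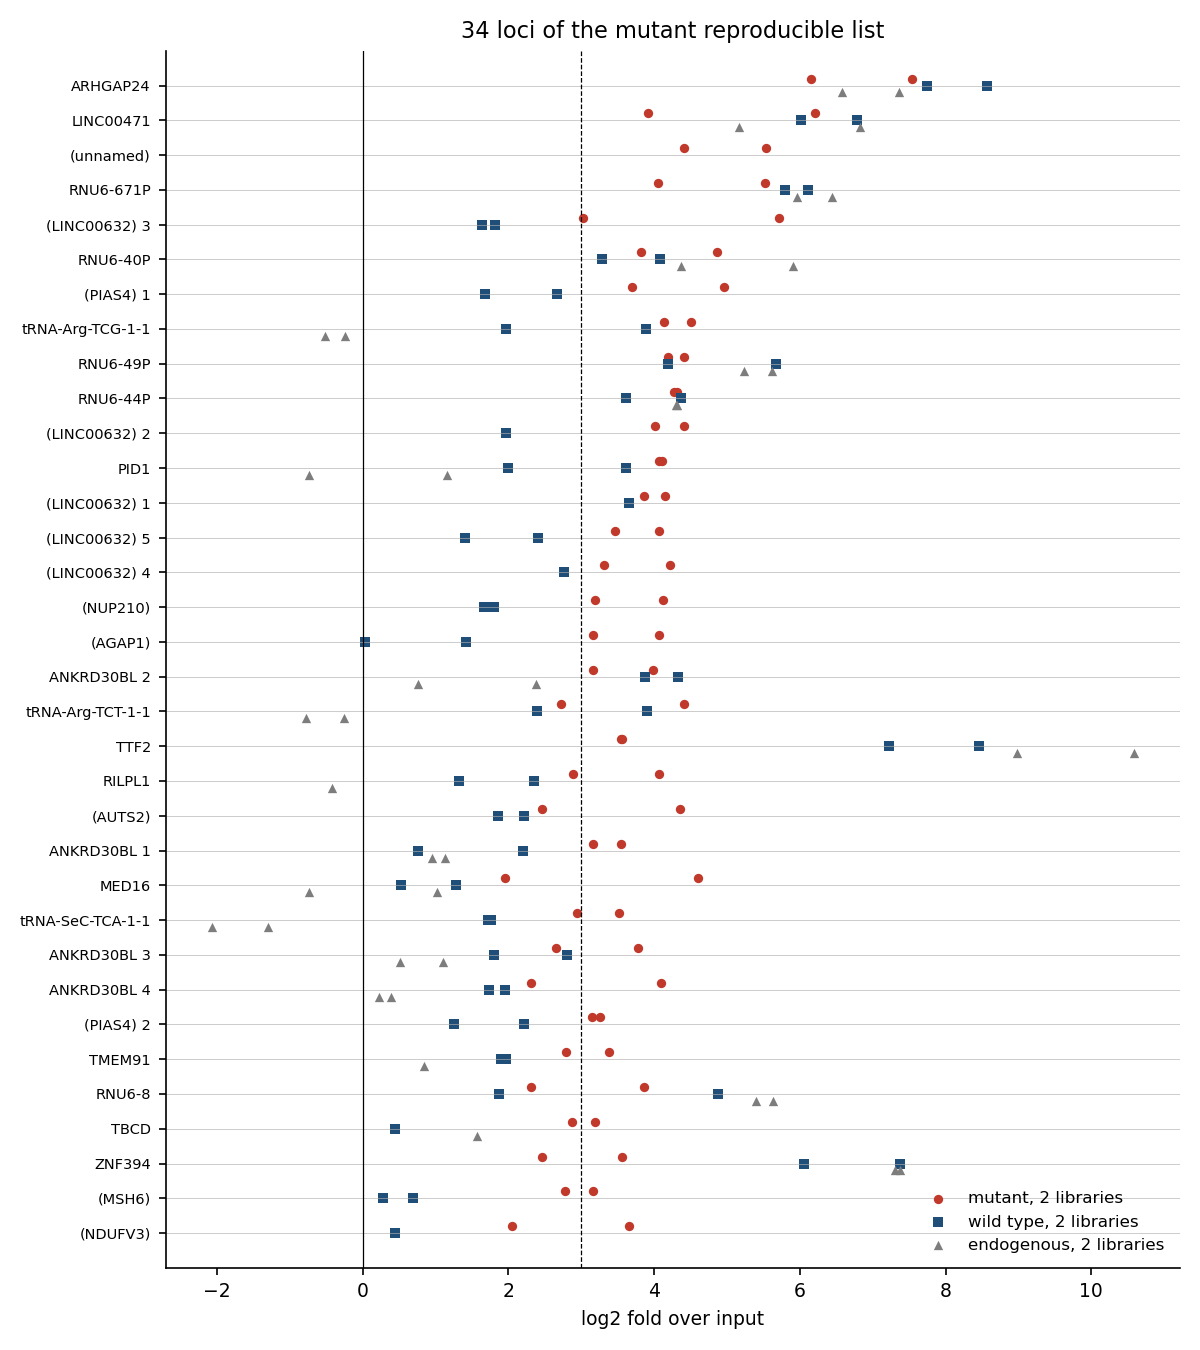
Log2 fold over input (x axis) at 34 of the 35 loci of the mutant reproducible list (y axis, ordered by the mutant mean), with 1 point per library for mutant (red circles), wild type (blue squares) and endogenous (grey triangles). Names in brackets are genes whose span holds a locus without an endogenous cluster, numbers tell loci of 1 gene apart, and the dashed line is the threshold of 3. ARHGAP24, LINC00471 and the U6 copies other than RNU6-8 were above 3 in every library, whereas the 3 tRNA genes were below 0 in endogenous.

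The overlap with the other groups was concentrated in the shared clusters. Of the 94 members of library 1, 35 overlapped an enriched cluster of either wild type library (37.2%) and 24 one of either endogenous library (25.5%). Of the 829 of library 2, 36 (4.34%) and 23 (2.77%) did. Among all other clusters of the 2 mutant libraries, 0.221% and 0.187% did so for wild type and 0.690% and 0.619% for endogenous. By set, 69.7% of shared library 1 clusters (51.3 to 84.4) were enriched in wild type, against 19.7% of its single-library clusters (10.6 to 31.8) and 1.64% of those of library 2 (0.873 to 2.78). For endogenous the shares were 51.5%, 11.5% and 1.01%. These shares and intervals count neighbouring clusters of 1 site separately. Counted as joined loci, 10 of the 20 shared loci were enriched in either wild type library and 7 in either endogenous library. For loci of library 1 alone the counts were 7 and 4 of 50, and for loci of library 2 alone 11 and 8 of 762.

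**Figure D4:**
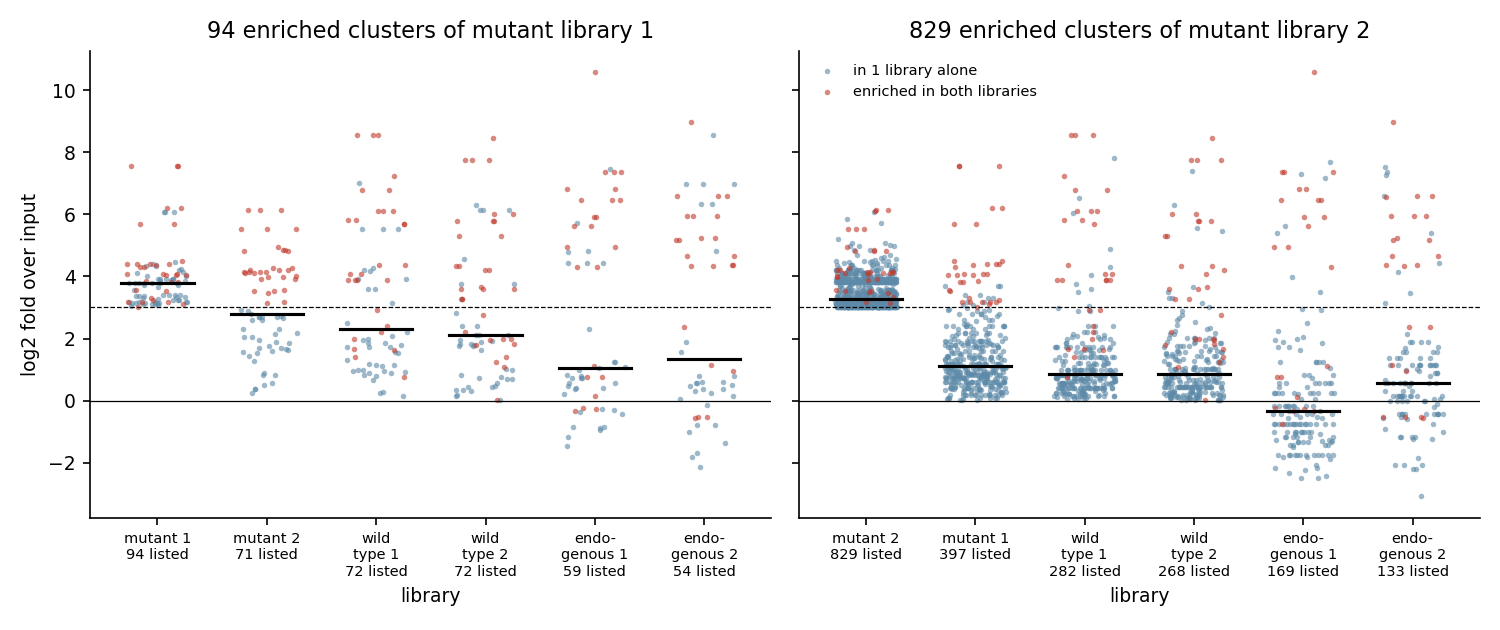
Log2 fold over input (y axis) of the enriched clusters of mutant library 1 (left) and mutant library 2 (right), in the library that defined them and in the 5 others (x axis, with the number listed). Red points are clusters enriched in both mutant libraries, blue points those of 1 library alone, black bars are medians over listed clusters and the dashed line is the threshold of 3. By definition red points are enriched in the partner library and blue points are not. In the wild type libraries red points stay mostly high, while the bulk of the library 2 points lie under 3 in the wild type and endogenous libraries.

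Coding introns, where QKI sites usually lie, took a smaller part of the members. Among members with a class, 21.0% were in coding introns in mutant library 1 and 59.2% in mutant library 2 (40.1 ± 27.0, SD, n = 2), against 79.1% and 80.5% in wild type (79.8 ± 1.02, SD, n = 2). Among the other clusters with a class, coding introns took 70.1% and 67.2% in the mutant libraries, against 78.9% and 80.3% in wild type, so the mutant was lower there as well. Among members, both mutant libraries lay below both wild type libraries, with a mean difference of −39.8 percentage points (exact permutation test, two-sided, p = 0.333, which is the design's floor). The difference was −20.7 points without mutant library 1 and −58.9 points without mutant library 2.

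Regions were also compared directly between mutant and wild type with limma, over the 5356 merged regions that held a cluster in all 4 tagged libraries. With p-values adjusted by Benjamini-Hochberg and a limit of 0.05, 1 region was higher in the mutant (0.0187%) and 32 were lower (0.597%). At an unadjusted p under 0.05 there were 393 and 258, or 198 and 415 once each library was centred on its median. Regions holding an enriched mutant cluster numbered 132, of which 1 was called higher and 1 lower, with a median difference of 1.35 against 0.26 over all regions. These regions were chosen for high mutant values, so a positive median is built in. The 17 regions with a shared cluster had a median difference of 0.66.

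The lower member was TTF2, at a mean log2 fold of 3.55 in the mutant and 7.84 in wild type (difference −4.29, SE 0.563, limma adjusted p = 0.0191). The higher one was an unnamed region within EHMT1, a histone methyltransferase gene (chromosome 9, 140610761 to 140610864, plus strand), with 3.41 and 4.56 in the mutant, against 0.58 and 0.70 in wild type (difference 3.35, SE 0.552, limma adjusted p = 0.0472). It was enriched in library 2 alone, since its −log10 p in library 1 was 2.49. Both calls ended without mutant library 1 (limma adjusted p = 0.139 for TTF2 and 0.0914 for the region on chromosome 9) and without mutant library 2 (0.141 and 0.185), fits in which the lone mutant library is assumed to vary like the others. The difference was then −4.28 and −4.30 at TTF2 and 3.92 and 2.77 at the region on chromosome 9, and both calls held without either wild type library. ZNF394 (difference −3.70, limma adjusted p = 0.0536) and the splice-site region of lnc-USP6-2 (−4.39, limma adjusted p = 0.0532) did not pass, but both passed after each library was centred on its median (limma adjusted p = 0.0116 and 0.00904).

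**Figure D5:**
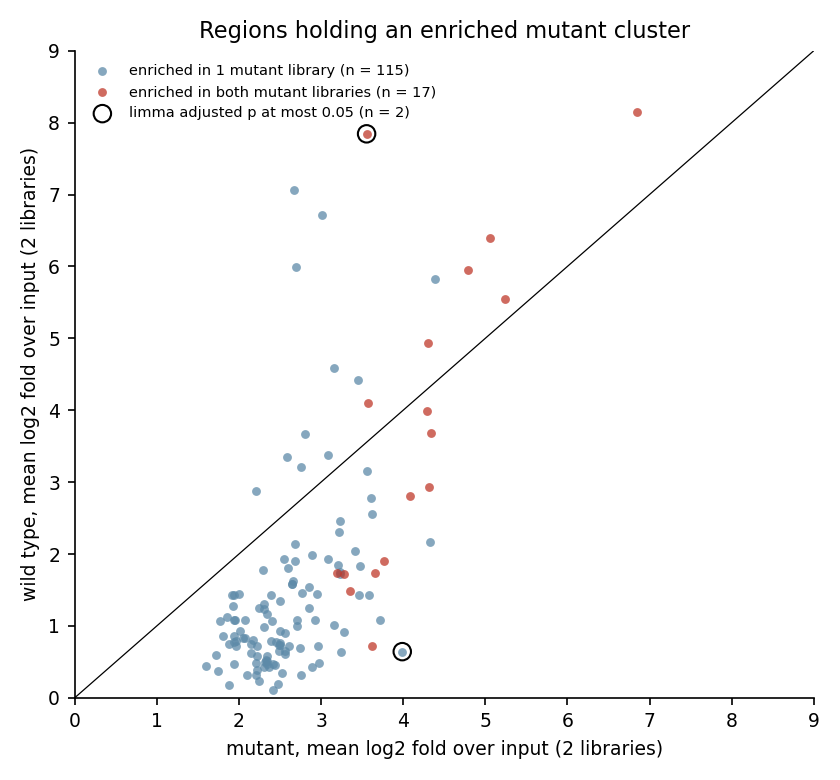
Mean log2 fold over input in the mutant (x axis) and in wild type (y axis), 2 libraries each, for the 132 regions that held an enriched mutant cluster and were listed in all 4 tagged libraries. The line marks equal values, red points were enriched in both mutant libraries, blue points in 1, and circles mark the 2 regions past limma's threshold. TTF2 lies far above the line and the region on chromosome 9 far below it.

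Other gene lists held few members or none. Among 14 known QKI targets 0 of 69 and 0 of 110 clusters were enriched in the mutant libraries, which allows up to 4.35% and 2.73%, against 16 of 160 and 16 of 169 in wild type. Small nucleolar and Cajal body RNAs had 0 of 108 and 0 of 126 in the mutant, against 0 of 33 and 0 of 15 in wild type. Tri-snRNP and U6 protein genes had 0 of 47 and 0 of 61 in the mutant, against 8 of 108 and 7 of 97 in wild type. Nuclear long noncoding RNAs had 0 of 102 and 0 of 100, against 8 of 96 and 6 of 92. Splicing regulators had 1 of 191, HNRNPK, and 1 of 196, CELF2 (3.35 in library 2 and 0.61 in library 1), against 21 of 380 and 27 of 417. Other small RNAs of RNA polymerase III and the cytoplasm had 0 of 26 and 2 of 43, both at RN7SKP168, against 0 of 22 and 0 of 13. Histone genes had 0 of 16 and 0 of 49, against 3 of 16 in each wild type library. The other small nuclear RNAs (0 of 5 in each mutant library) and the neuronal markers (0 of 14 and 0 of 17) had no enriched mutant cluster.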

How the data were processed

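Per the submitters' processing notes, the tools behind the eCLIP files were SAMtools, STAR, UMI-tools and cutadapt, and the build was hg19. Which program called the clusters, and the tool versions, is not given here. The authors deposited, for each of 6 immunoprecipitation libraries, clusters with a log2 fold over size-matched input and a −log10 p capped at 400. They also deposited a reproducible list per pair of libraries, whose fold is the authors' value for the pair. Depth is unknown, and values were used as deposited. The 6 inputs enter only through these values.

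A cluster with both values of at least 3 was called enriched. Overlap meant at least 1 shared base on the same strand. Name and class were taken from whichever endogenous cluster overlapped a member most, and clusters within 50 bases were joined into loci. In each library the overlapping cluster with the highest −log10 p gave the value of a locus. A gene span runs between the outermost endogenous clusters of a gene. For limma (3.58.1, R 4.3.3; lmFit and eBayes, mutant and wild type libraries only), clusters of the libraries were merged into 784364 regions, of which 5356 had a cluster in all 4. The step was tested on simulated data. Shares have exact Clopper-Pearson intervals, the upper limit beside a list's count of 0 is 3 counts, and group means were compared with an exact permutation test (SciPy 1.17.1). Python 3.11.15, pandas 2.3.3, NumPy 2.4.6 and matplotlib 3.10.9 were used.

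The members and the 14 gene lists were chosen with earlier results of these data known. Genes named were those of the reproducible list and the shared clusters, the leading single-library genes by number and by fold (8 each per library), the members past limma's threshold and up to 5 enriched members of each list. Further genes named for 3′ UTRs, 5′ splice sites, microRNAs, recurrent gene spans and narrow misses were chosen after their values were seen. The labels do not say whether same-numbered libraries of mutant and wild type shared a batch. Their deviations correlated at −0.0386, which cannot settle it. Alternatives were other thresholds, overlaps, annotation sources, scalings and libraries left out. One gene of the reproducible list is not reported here. A QKI motif share was not computed, since no hg19 sequence was used here.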

Additional observations from a re-analysis of the deposited data

Results flagged for a closer look

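At TTF2 the mutant libraries gave log2 folds of 3.55 and 3.56, against 7.23 and 8.46 in wild type, a difference of −4.29 that passed limma's test between the groups. The unnamed region on chromosome 9 within EHMT1 differed the other way, by 3.35. Neither call held with 1 mutant library left out, when the difference was −4.28 and −4.30 at TTF2 and 3.92 and 2.77 at the region on chromosome 9.

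At 3 tRNA genes both mutant libraries lay above input and both endogenous libraries below it, a difference that was not tested. The mean log2 fold of the mutant exceeded that of endogenous by 4.70 at tRNA-Arg-TCG-1-1, by 4.91 at tRNA-SeC-TCA-1-1 and by 4.08 at tRNA-Arg-TCT-1-1. Both tagged wild type libraries also lay above input there, at 3.89 and 1.97, 1.73 and 1.76, and 3.91 and 2.39 in that order of genes. The mutant and wild type files list no value below 0, so the opposite sign could not have been seen in either group. Among 1623 regions listed in all 6 libraries, 16.6% had positive mutant and negative endogenous values. Antibody and transfection differ between the tagged and endogenous libraries but not between mutant and wild type, and their part was not tested.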

How the results depend on the processing

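Counts of members depended on the thresholds. The mean number enriched per mutant library, 461.5 as reported, became 1549 with a log2 fold threshold of 2, 79.5 with 4, 1215.5 with a −log10 p threshold of 2 and 141.5 with 5, and 94 to 829 with 1 library left out. The shared clusters of library 1, 33 as reported, numbered 89 with a log2 fold threshold of 2, 17 with 4 and 20 as joined loci. With a −log10 p threshold of 5 the overlap with enriched wild type clusters was 53.4% for library 1 and 12.4% for library 2, and with endogenous 39.7% and 6.67%. The median partner fold of library 2 members, 1.12, was 0.00 with unlisted clusters set to 0. The coding intron difference stayed negative under every alternative run, at −58.9 to −20.7 points with 1 library left out. In limma, where 1 region was higher and 32 lower in the mutant, the counts were 0 and 76 with a spread shared by all 6 libraries, 1 and 65 after centring, 2 and 49 with a −log10 p filter, 954 and 11126 with unlisted clusters set to 0, 0 and 27 with robust eBayes, and 0 to 4 and 1 to 60 with 1 library left out. The fit with the replicate block, which pairs same-numbered libraries, gave 1 and 27. The call of the region on chromosome 9 also ended under robust eBayes (limma adjusted p = 0.0527) and with unlisted clusters set to 0 (0.0508). ZNF394 and lnc-USP6-2, which did not pass, passed with the shared spread (limma adjusted p = 0.00297 and 0.00215), after centring, with the −log10 p filter (0.0128 and 0.00895) and without either wild type library, and ZNF394 also with the replicate block (0.0263). The causes were not tested. The share of members with a QKI motif was not run. Unknown depth and repeated low values limit what single clusters of library 2 can show.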
